A study of Homo sapiens with 4 samples.

Results

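The genes described here are 9 genes of MHC class I antigen presentation, taken by symbol from the 58365 rows of a table of gene expression in differentiating human embryonic stem cells (hESCs). They are the heavy chain genes HLA-B, HLA-C and HLA-E, the light chain gene B2M, the peptide transport and loading genes TAP1, TAP2 and TAPBP, and the immunoproteasome genes PSMB8 and PSMB9. Each symbol had 1 row. The rule names the genes by symbol and sets no threshold on their values.

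RNA-seq was performed on 4 libraries of H1 cells, an established hESC line, at day 8 of hematopoietic differentiation. All cells received 40 ng/ml activinA and 50 ng/ml BMP4 for 2 days, followed by 40 ng/ml VEGF and 50 ng/ml bFGF for 3 days. For the last 3 days, the cells of 2 libraries were kept in the same VEGF and bFGF medium with the TGFβ type I receptor inhibitor SB431542 (SB). Those of the other 2 libraries were kept in it with DMSO, the solvent control. The study describes collecting CD31+ cells, the endothelial and blood-forming fraction, a step that the sample labels do not mention. The groups were set side by side to ask what the loss of TGFβ signaling does to the transcriptome at the step from endothelium to blood. A single line was used, and the labels do not say that libraries of a group came from separate cultures, so that p-values measure only the spread between these libraries.

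MHC class I molecules carry peptides of the cell's own proteins to the surface, where CD8+ T cells and natural killer cells read them. The proteasome cuts the peptides, the transporter of TAP1 and TAP2 moves them into the endoplasmic reticulum, tapasin (TAPBP) holds the empty heavy chain to the transporter, and B2M completes the molecule. Embryonic stem cells and their early derivatives are known for low levels of class I, and interferons raise most of these genes through promoter elements bound by interferon regulatory factors (IRFs).

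The promoter sequences are shown because IRF elements are what most of these genes share beyond their function. In the 250 bases before the transcription start given by RefSeq (GRCh38.p14), matches to GAAANNGAAA or GAANNGAAA on either strand were sought. Of the 8 genes with a window, 6 held a match in at least 1 window. Over all 35116 windows, counted singly and not by gene, the share was 9.08%. A κB element (GGGNNTTCNCC, either strand, 1.33% of windows) and the core of an ATF element (TGACGC, either strand, 7.67% of windows) stood beside the IRF match in both classical heavy chain genes. Other spellings of the κB and ATF elements were not sought, so a window without a match may still hold such an element. The 6 windows are given 5′ to 3′ along the gene, with these matches in capitals: HLA-B at chr6:31357180-31357429 (minus strand), HLA-C at chr6:31272093-31272342 (minus), B2M at chr15:44711267-44711516 (plus), TAP1 at chr6:32853705-32853954 (minus), TAP2 at chr6:32838740-32838989 (minus) and TAPBP at chr6:33314079-33314328 (minus).
HLA-B: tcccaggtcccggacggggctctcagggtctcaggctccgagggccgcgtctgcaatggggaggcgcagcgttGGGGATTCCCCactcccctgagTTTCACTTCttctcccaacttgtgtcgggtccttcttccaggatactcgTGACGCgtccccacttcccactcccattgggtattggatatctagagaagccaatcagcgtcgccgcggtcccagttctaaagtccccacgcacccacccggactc
HLA-C: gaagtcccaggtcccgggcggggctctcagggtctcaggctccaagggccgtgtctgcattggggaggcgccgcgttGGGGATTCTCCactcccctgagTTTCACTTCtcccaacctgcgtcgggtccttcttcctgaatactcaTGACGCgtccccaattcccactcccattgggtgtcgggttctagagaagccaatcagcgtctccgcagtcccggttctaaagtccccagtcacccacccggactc
B2M: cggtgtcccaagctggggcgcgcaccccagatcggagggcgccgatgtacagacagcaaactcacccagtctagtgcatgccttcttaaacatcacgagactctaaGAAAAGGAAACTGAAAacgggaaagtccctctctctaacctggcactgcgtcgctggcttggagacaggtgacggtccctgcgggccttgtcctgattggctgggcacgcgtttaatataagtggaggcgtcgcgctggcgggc
TAP1: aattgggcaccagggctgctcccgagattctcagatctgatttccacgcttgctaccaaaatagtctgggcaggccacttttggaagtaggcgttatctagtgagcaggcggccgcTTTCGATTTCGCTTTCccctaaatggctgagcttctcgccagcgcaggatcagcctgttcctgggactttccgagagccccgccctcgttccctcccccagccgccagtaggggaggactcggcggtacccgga
TAP2: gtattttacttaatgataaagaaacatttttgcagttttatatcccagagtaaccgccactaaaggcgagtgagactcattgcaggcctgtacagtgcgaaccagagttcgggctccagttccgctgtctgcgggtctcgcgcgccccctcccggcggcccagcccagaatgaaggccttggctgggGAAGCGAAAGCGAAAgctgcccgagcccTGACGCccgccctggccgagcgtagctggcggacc
TAPBP: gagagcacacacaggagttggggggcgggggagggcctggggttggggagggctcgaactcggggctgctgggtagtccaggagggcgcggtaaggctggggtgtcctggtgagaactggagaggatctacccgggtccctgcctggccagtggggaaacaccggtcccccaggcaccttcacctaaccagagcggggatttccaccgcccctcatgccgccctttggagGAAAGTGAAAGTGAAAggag

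In HLA-B and HLA-C the 3 elements stood in the same order and at nearly the same distance from the start. The κB match began 177 bases before the start of HLA-B and 173 bases before that of HLA-C. The IRF match followed at 155 and 151 bases, and the ATF match at 106 and 105 bases. In B2M, TAP1, TAP2 and TAPBP there were 2 IRF matches each, which overlapped one another and form the single capital run, except that the shorter run of TAP2 is its ATF match. PSMB8 has 2 windows and PSMB9 has 1, and none of these held any of the motifs in the spellings sought. TAP1 has a second window, downstream of the one shown, without a match. TAP1 and PSMB9 are read in opposite directions from starts 488 bases apart, and their windows share 13 bases. HLA-E was not matched to a window. A match describes these letters only and does not show that a factor was bound.

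The depth recovered from low values of single-exon genes was about 24.2 and 23.6 (in units of 1e6 fragments) with DMSO and 19.7 and 26.0 with SB. The endothelial identity of the cells was visible in all 4 libraries, with PECAM1, which encodes CD31, between 153 and 197 FPKM (a fragment count divided by transcript length and library size) and CDH5 between 202 and 273 FPKM. Blood and macrophage genes were also expressed, among them SPN, which encodes CD43, at 31.6 to 66.8 FPKM, ITGA2B (CD41) at 127 to 243 FPKM and AIF1 at 26.7 to 111 FPKM. PTPRC, the pan-leukocyte gene for CD45, reached at most 0.202 FPKM, CD14 at most 0.169 FPKM and the T cell gene CD3E at most 0.0506 FPKM. Same-numbered libraries resembled each other across treatments: mitochondrial transcripts made up 5.88% and 6.64% of FPKM in the libraries numbered 1, and 9.92% and 10.2% in those numbered 2. The labels do not say what a number stands for, and the members' differences are given within each number as well as pooled.

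The members spanned a wide range of expression in both groups. B2M was the highest, with a mean of 519 FPKM over the 4 libraries, above 99.1% of the 14909 genes that were tested. HLA-E (mean 119 FPKM), HLA-B (99.3 FPKM) and HLA-C (52.4 FPKM) followed, and the ranges of neighbours in this order overlapped. TAPBP (26.8 FPKM) lay below every library of HLA-C and above every library of TAP2. The 2 transporter subunits and the 2 inducible proteasome subunits were near the limit of what was tested: TAP2 averaged 2.14 FPKM, PSMB8 1.12 FPKM, TAP1 0.604 FPKM and PSMB9 0.424 FPKM, and the ranges of neighbours overlapped among the last 3. The abundant light and heavy chains therefore stood beside a transporter and inducible proteasome subunits of a few FPKM or less.

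**Figure D1:**
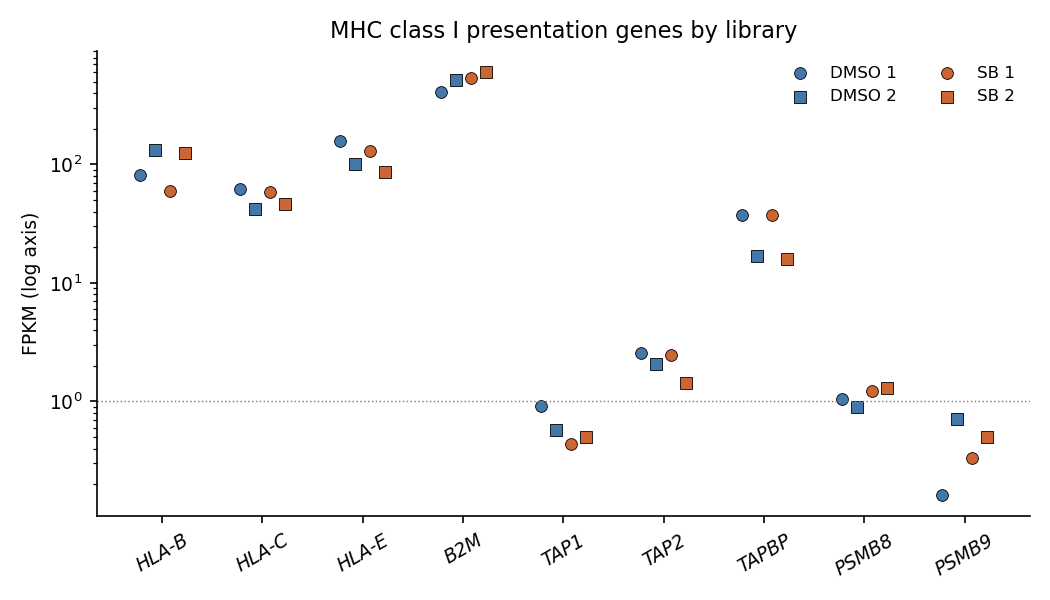
FPKM of each gene (log axis) in the 2 DMSO libraries (blue) and the 2 SB libraries (orange), with circles for number 1, squares for number 2 and a dotted line at 1 FPKM. B2M lies between 411 and 605 FPKM and PSMB9 between 0.162 and 0.708 FPKM, and for HLA-B, HLA-C, HLA-E and TAPBP the squares and circles separate more than the colors.

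No member differed between SB and DMSO past the adjusted threshold of 0.05 (limma on log2(FPKM + 1), Benjamini-Hochberg adjusted over all genes tested), where 20 of 14909 genes did (0.134%). Of the 9 members, 7 passed the filter of a mean of at least 1 FPKM in a group, and TAP1 and PSMB9 did not. At an unadjusted p under 0.05 the count was also 0 of 7, against 9.96% of all genes tested (4.8% higher and 5.16% lower with SB). The median difference of the 7 was -0.04 on the log2 scale, against 0.04 over all genes. Within number 1 their median was -0.03 and within number 2 it was -0.08. The median size of the difference, whatever its sign, was 0.20 for these members and 0.19 over all genes. In a fit blocked on the replicate number, 10.5% of genes and again 0 members were called. At an unadjusted p under 0.05 that fit held 3 of 7 members (B2M, HLA-E and HLA-B) and 30.4% of all genes. The smallest two-sided p of an exact permutation test is 0.333 for 2 libraries against 2, so that limma's intervals carry the comparison.

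No heavy chain gene among the members was called, and the groups overlapped in each. HLA-B, which encodes a classical heavy chain recognized by CD8+ T cells, stood at 81.2 and 132 FPKM with DMSO and at 59.7 and 124 FPKM with SB. Its means were 107 ± 36.2 and 91.8 ± 45.5 FPKM (SD, n = 2 each). The libraries numbered 2 were high in both groups, and the groups overlapped, with a difference of -0.27 (SE 0.43, 95% interval -1.39 to 0.85, adjusted p = 0.932). It was lower with SB within number 1 (-0.44) and within number 2 (-0.09).

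HLA-C, the classical heavy chain gene whose product is also a main ligand of killer cell receptors, was measured at 62.2 and 42.2 FPKM with DMSO and at 58.8 and 46.2 FPKM with SB. Here the libraries numbered 1 were the high ones, and the SB values lay between the DMSO values. The difference was 0.02 (SE 0.26, interval -0.65 to 0.69, adjusted p = 0.992), with -0.080 within number 1 and 0.13 within number 2, and its sign turned under other scalings of the libraries. HLA-E, the nonclassical gene whose product presents leader peptides of other heavy chains to natural killer cells, was measured at 157 and 101 FPKM with DMSO and at 131 and 86.9 FPKM with SB. It was lower with SB within each number (-0.26 and -0.21), the groups overlapped, and the difference was -0.23 (SE 0.32, interval -1.06 to 0.59, adjusted p = 0.910).

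The rows of these heavy chain genes are uncertain, since their sequences are close to one another. The submitters' processing notes list RSEM, a quantifier that divides reads matching several genes among them, but not the step it was used for. The locus of HLA-B in the files (chromosome 6, 31269491 to 31357188, minus strand) also spans much of that of HLA-C (31268749 to 31272130, minus strand). HLA-E lies apart from them (30489467 to 30494205, plus strand). The sum of HLA-B and HLA-C, formed after the values were seen, depends less on sharing between these 2. It came to 143 and 175 FPKM with DMSO and to 118 and 170 FPKM with SB, and the groups overlapped. The ratio of HLA-B to HLA-C was 1.30 and 3.14 with DMSO and 1.01 and 2.69 with SB, and thus differed more between the numbers than between the groups.

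B2M, the invariant light chain that every class I heavy chain needs to reach the surface, was the member with the highest difference. It reached 411 and 521 FPKM with DMSO and 538 and 605 FPKM with SB, with means of 466 ± 77.9 and 571 ± 47.4 FPKM (SD, n = 2 each). Both SB libraries were above both DMSO libraries, as they were for 21.5% of all genes tested. The difference was 0.30 (SE 0.19, interval -0.19 to 0.79, adjusted p = 0.743 in limma), with 0.39 within number 1 and 0.21 within number 2. Once the libraries were scaled to the same FPKM sum, SB replicate 1 fell within the DMSO range. B2M (chromosome 15, 44711477 to 44718877, plus strand) is the one member outside the MHC region, and its main transcript has 39.4% GC against 54.8% to 60.2% in the others. Set against the sum of HLA-B, HLA-C and HLA-E, B2M stood at a ratio of 1.37 and 1.89 with DMSO and of 2.16 and 2.35 with SB. This ratio, also formed after the values were seen, needs no scaling between libraries. Its groups did not overlap, which in either direction also held for 37.5% of all single genes tested.

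The transporter and loading genes were not called either. TAP2 (chromosome 6, 32821833 to 32838780, minus strand), a subunit of the peptide transporter, was measured at 2.56 and 2.08 FPKM with DMSO and at 2.49 and 1.42 FPKM with SB. SB replicate 2 was the low library, the groups overlapped, and the difference was -0.19 (SE 0.26, interval -0.87 to 0.49, adjusted p = 0.914), with -0.03 within number 1 and -0.35 within number 2. TAP1 (32845209 to 32853978, minus strand), its partner subunit, was measured at 0.908 and 0.573 FPKM with DMSO and at 0.437 and 0.499 FPKM with SB, or about 59.0, 36.1, 23.0 and 34.7 fragments. Both SB libraries lay below both DMSO libraries, which held for 16.0% of the genes tested. TAP1 was under the filter, and without it the difference was -0.24 (SE 0.14, interval -0.67 to 0.19, adjusted p = 0.765). TAPBP (33299694 to 33314387, minus strand), the bridge between transporter and heavy chain, was measured at 37.3 and 16.7 FPKM with DMSO and at 37.3 and 15.8 FPKM with SB. The 2 groups were nearly superimposed at each number, with a difference of 0.00 within number 1 and -0.08 within number 2, while number 1 exceeded number 2 by 2.23 times with DMSO and 2.36 times with SB. The pooled difference was -0.04 with the widest interval of all members (-1.46 to 1.38, adjusted p = 0.993).

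The immunoproteasome genes were the members with the fewest fragments beside TAP1. PSMB8, the inducible subunit that takes the place of PSMB5 in the proteasome, was measured at 1.06 and 0.889 FPKM with DMSO and at 1.23 and 1.30 FPKM with SB, or about 21.8, 17.5, 20.3 and 28.3 fragments. Both SB libraries were above both DMSO libraries, as for 21.5% of all genes tested. The difference was 0.20 (SE 0.21, interval -0.35 to 0.75, adjusted p = 0.871), with 0.12 within number 1 and 0.28 within number 2. PSMB9, which takes the place of PSMB6, was measured at 0.162 and 0.708 FPKM with DMSO and at 0.330 and 0.496 FPKM with SB. These values rest on about 2.00, 8.22, 3.22 and 6.41 fragments, the groups overlapped, and a difference was not detectable at this depth. PSMB8 (chromosome 6, 32840717 to 32844703, minus strand), PSMB9 (32844136 to 32859585, plus strand) and TAP1 overlap in the annotation with one another or with PSMB8-AS1, and no source states whether reads were counted by strand, so that reads there cannot be assigned to 1 gene with certainty.

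The inducible subunits made up a small share of each catalytic pair. PSMB8 was 1.20% and 0.870% of the summed FPKM of PSMB8 and PSMB5 with DMSO, and 1.36% and 1.30% with SB. PSMB9 was 0.135% and 0.507% of PSMB9 and PSMB6 with DMSO, and 0.242% and 0.355% with SB. PSMB10, the third inducible subunit, was the most abundant of them, at 3.81% and 7.21% of PSMB10 and PSMB7 with DMSO and 7.44% and 8.93% with SB. PSMB5, PSMB6 and PSMB7, the constitutive partners, made up the rest of the summed FPKM, which measures RNA and not assembled proteasomes.

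**Figure D2:**
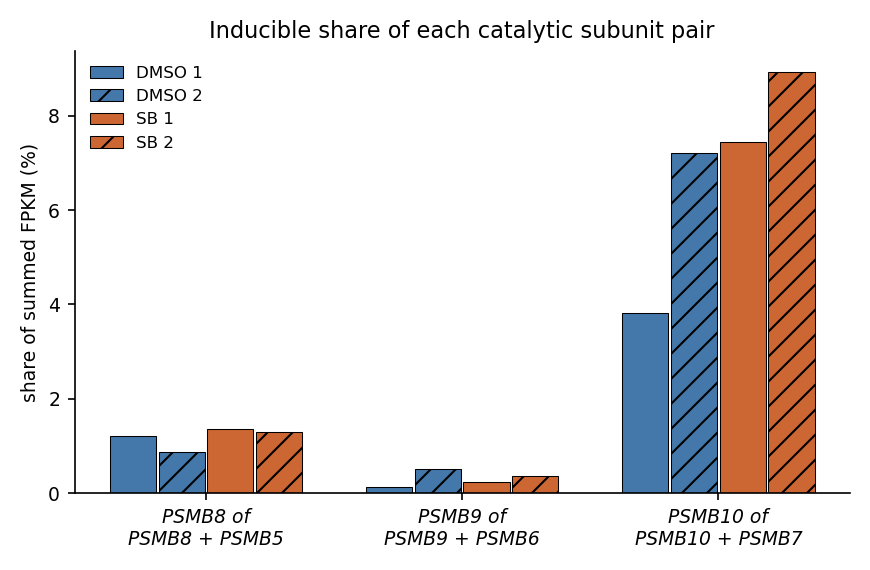
Share of each inducible subunit in the summed FPKM of its catalytic pair (%, bars from 0) in the DMSO libraries (blue) and the SB libraries (orange), hatched for number 2. PSMB8 stays between 0.870% and 1.36%, PSMB9 between 0.135% and 0.507%, and PSMB10 between 3.81% and 8.93%.

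Most tested members, like most of all genes tested, differed more between the replicate numbers than between the treatments. On the same log2 scale, number 2 minus number 1 was 0.87 for HLA-B, -0.45 for HLA-C, -0.61 for HLA-E, 0.26 for B2M, -0.37 for TAP2, -1.15 for TAPBP and -0.04 for PSMB8. The median size of this difference was 0.45 for the tested members and 0.25 over all genes. It exceeded the difference between SB and DMSO in 5 of 7 members and in 57.7% of all genes. Libraries of number 2 lay apart from those of number 1 in 5 of 7 members, as in 52.6% of all genes tested.

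**Figure D3:**
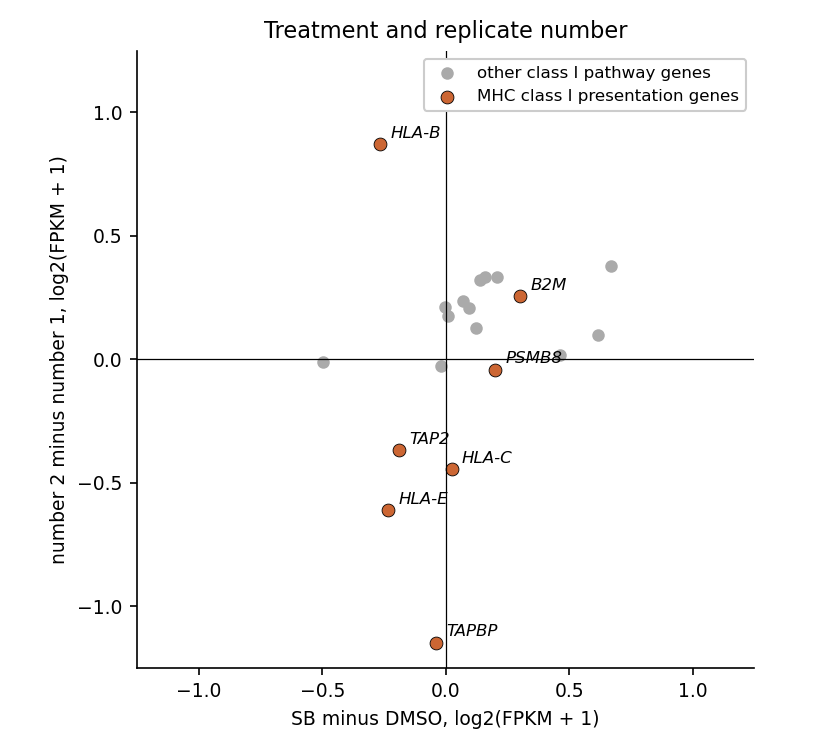
Difference between SB and DMSO (x axis) and between number 2 and number 1 (y axis), both on log2(FPKM + 1), for the tested members (orange) and other class I pathway genes (grey). The members spread from -1.15 to 0.87 on the y axis and from -0.27 to 0.30 on the x axis.

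The number difference followed transcript GC content across genes. Over the 14880 tested genes with a GC value, its Pearson correlation with GC was -0.53 and its Spearman correlation -0.64, a description across genes that share the same 4 libraries. Genes within 1 percentage point of the GC of HLA-B had a median of -0.23 and a middle 80% from -0.68 to 0.10, so that HLA-B, at 0.87, lay above this range and opposite to its median. TAPBP, at -1.15, lay below the middle 80% of genes of like GC (-0.66 to 0.08), and HLA-E, at -0.61, lay just below it (-0.57 to 0.25). HLA-C, B2M, TAP2 and PSMB8 lay inside the range of genes of like GC, which for B2M had a median of 0.27.

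The rest of the class I pathway was described from a list of 16 genes, of which 13 were tested. None passed the adjusted threshold, and 1, ERAP1, had an unadjusted p under 0.05. The median difference was 0.12. ERAP1, which trims peptides in the endoplasmic reticulum, was measured at 3.68 and 4.09 FPKM with DMSO and at 5.94 and 5.54 FPKM with SB (difference 0.46, SE 0.17, adjusted p = 0.485 in limma). PSMB10 was measured at 5.31 and 9.35 FPKM with DMSO and at 11.7 and 12.1 FPKM with SB (0.67, SE 0.28, adjusted p = 0.543), and the tapasin-related editor TAPBPL at 0.871 and 0.536 FPKM with DMSO and 1.19 and 2.07 FPKM with SB (0.62, SE 0.28, adjusted p = 0.580). In these 3 genes both SB libraries were above both DMSO libraries, a share of 3 of 13 against 21.5% of all genes.

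Among the nonclassical heavy chains of this list, HLA-F was measured at 2.12 and 1.59 FPKM with DMSO and at 0.850 and 1.19 FPKM with SB (-0.50, SE 0.23, adjusted p = 0.610), with both SB libraries below both DMSO libraries, as for 16.0% of all genes tested. HLA-G, the heavy chain of the placenta, reached at most 0.0890 FPKM, and HLA-H and ERAP2 were also below the filter. The general folding and quality control genes were expressed in all libraries and none was called: CALR differed by -0.02, PDIA3 by 0.00, HSPA5 by 0.01, SEC61A1 by 0.07, UGGT1 by 0.09 and CANX by 0.21. The proteasome activator genes PSME1 (0.16) and PSME2 (0.12) and the aminopeptidase gene LNPEP (0.14) were likewise not called.

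**Figure D4:**
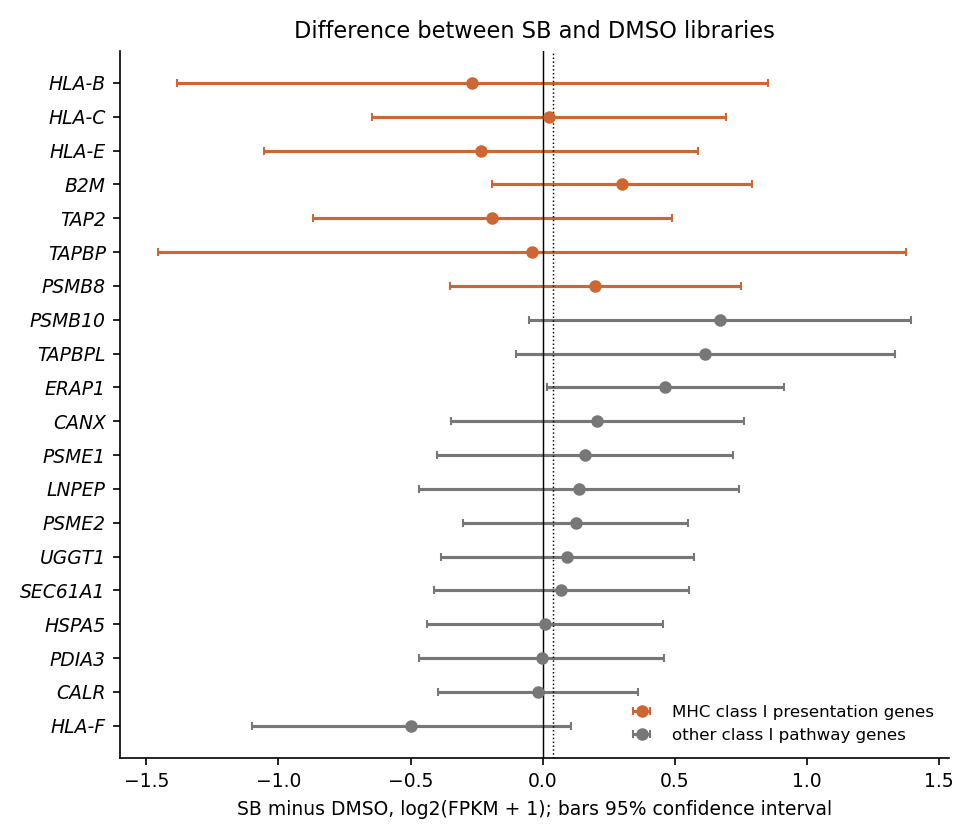
Difference between SB and DMSO on log2(FPKM + 1), with 95% confidence intervals from limma, for the 7 tested members (orange) and the 13 tested other class I pathway genes (grey). The solid line is 0 and the dotted line the median of all genes tested (0.04), and the interval includes 0 for every gene shown except ERAP1.

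The constitutive proteasome core, which makes most class I peptides, was tested in full (14 of 14 genes). None was called and 0 had an unadjusted p under 0.05, although all 14 differences were above 0, with a median of 0.20. In 7 of the 14 genes both SB libraries were above both DMSO libraries, against 21.5% of all genes tested. PSMA4 was measured at 164 and 184 FPKM with DMSO and at 212 and 220 FPKM with SB (0.31, adjusted p = 0.656), and PSMA3 (0.32), PSMB3 (0.24) and PSMA6 (0.23) had differences of like size. Housekeeping genes had a median difference of 0.13.

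The factors that act on class I promoters ranged from NLRC5, below the filter, to RFXANK, at 81.6 to 99.2 FPKM. Of 14, 13 were tested, 0 passed the adjusted threshold in limma and the median was 0.09. NFYC, a subunit of the CCAAT-binding complex, was the one with an unadjusted p under 0.05, at 21.3 and 22.4 FPKM with DMSO and 30.4 and 30.1 FPKM with SB (0.45, SE 0.15, adjusted p = 0.449). NLRC5, the class I transactivator, was below the filter at 0.754 and 0.891 FPKM with DMSO and 0.581 and 1.34 FPKM with SB. IRF1, the factor that interferon γ induces, was measured at 1.99 and 2.37 FPKM with DMSO and 1.59 and 2.44 FPKM with SB (-0.09). The RFX subunits RFX5 (0.09), RFXANK (0.17) and RFXAP (-0.02), the NF-Y subunits NFYA (0.14) and NFYB (0.03), the NF-κB genes NFKB1 (0.22), RELA (-0.14) and REL (0.02), and CREB1 (0.30), ATF1 (-0.10) and IRF2 (0.10) had intervals that included 0.

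Interferon-stimulated genes, which share the IRF element with most members, were described from the same libraries. Of 44 listed, 34 were tested, with a median difference of 0.48, and in 24 of 34 both SB libraries were above both DMSO libraries, against 21.5% of all genes and 2 of 7 members. In 2 of 34, TRIM22 and GBP2, both SB libraries were below both DMSO libraries, against 16.0% of all genes. TRIM22 was measured at 8.97 and 10.3 FPKM with DMSO and at 2.65 and 3.98 FPKM with SB (-1.32, adjusted p = 0.169 in limma). GBP2 differed by -0.58 (adjusted p = 0.529 in limma), and 9 of the 34 differences were below 0. IFI6, an interferon-induced mitochondrial protein gene, rose from 13.5 and 15.7 FPKM to 111 and 124 FPKM (2.92, SE 0.17, adjusted p = 0.0325 in limma) and was the one gene of this list past the adjusted threshold. Its difference stayed between 2.83 and 3.02 with any 1 of the 4 libraries left out, but limma's adjusted p was then 0.0807 to 0.131, and 0.3005 without the filter. The antiviral GTPase gene MX1 was measured at 0.338 and 0.476 FPKM with DMSO and 5.46 and 6.20 FPKM with SB (2.28, adjusted p = 0.0646). OAS1, an antiviral RNA sensor gene, had a difference of 1.95 (adjusted p = 0.0803), and the ubiquitin-like ISG15 one of 1.76 (adjusted p = 0.0803). Of this list, 30 of the 35 genes with a promoter window held an IRF match (85.7%), compared with 6 of 8 members (75.0%), 7 of 14 other class I pathway genes (50.0%), 4 of 10 constitutive proteasome genes (40.0%) and 1 of 10 housekeeping genes (10.0%).

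**Figure D5:**
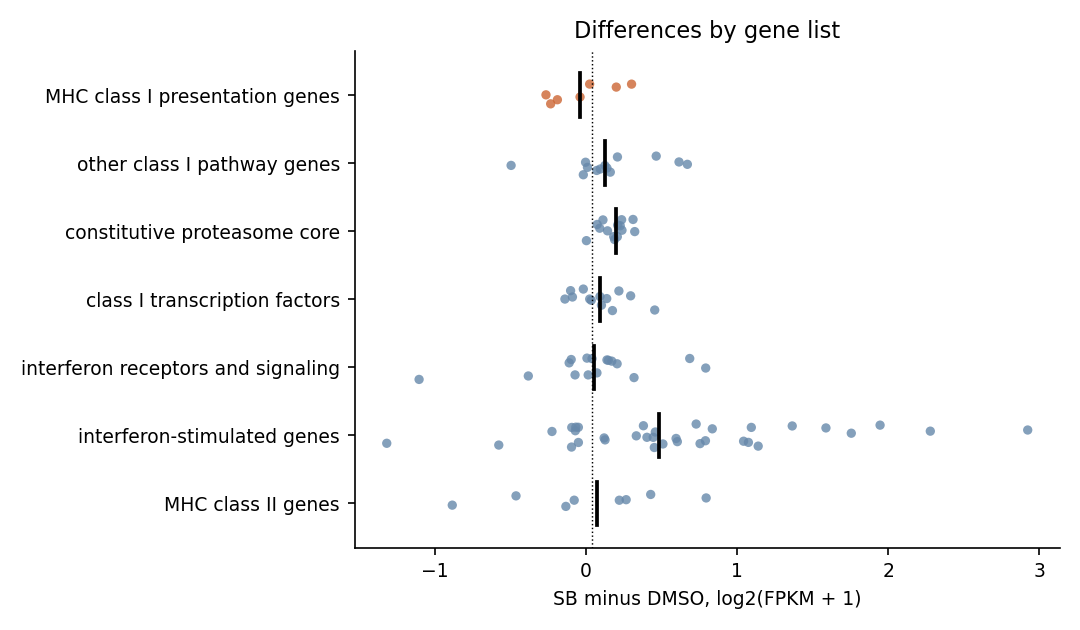
Difference between SB and DMSO on log2(FPKM + 1) for the tested genes of each list (points, spread vertically at random), with each list's median as a black bar and the median of all genes tested (0.04) as a dotted line. The MHC class I presentation genes lie between -0.27 and 0.30, and the interferon-stimulated genes between -1.32 and 2.92.

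Genes upstream of these were mixed. No interferon gene was tested: of 9 listed, 6 were listed at 0 in all libraries and the highest value was 0.107 FPKM. Of 18 receptor and signaling genes, 16 were tested and none passed the adjusted threshold, with 2 higher and 1 lower at an unadjusted p under 0.05. IRF9, part of the complex that carries type I interferon signals to promoters, was measured at 15.9 and 14.1 FPKM with DMSO and 22.9 and 26.7 FPKM with SB (0.69, adjusted p = 0.311 in limma). IRF7, an interferon-induced factor, differed by 0.79 (adjusted p = 0.499) and the type I receptor gene IFNAR2 by -0.38 (adjusted p = 0.678). SOCS3, a feedback inhibitor of cytokine signaling, was measured at 31.0 and 22.3 FPKM with DMSO and at 12.8 and 10.7 FPKM with SB (-1.11, SE 0.23, adjusted p = 0.224).

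MHC class II genes, which present peptides on professional antigen-presenting cells, reached at most 28.2 FPKM. Of 13, 8 were tested, 0 passed the adjusted threshold and the median was 0.07. HLA-DQB1, a class II β chain gene, was measured at 7.75 and 6.93 FPKM with DMSO and at 3.75 and 3.27 FPKM with SB (-0.89, SE 0.18, adjusted p = 0.217 in limma), while HLA-DMA (0.43), HLA-DPA1 (0.80) and CD74 (-0.46) had p-values above 0.05. CD74, the invariant chain gene, was measured at 28.2 and 16.5 FPKM with DMSO and at 16.8 and 14.1 FPKM with SB. CIITA, the class II transactivator, reached at most 0.486 FPKM. Among class I-related ligands and receptor partners, 9 of 12 were tested and 0 called. CD47, the signal that restrains phagocytes, was measured at 40.9 and 40.7 FPKM with DMSO and at 64.8 and 69.8 FPKM with SB (0.71, adjusted p = 0.247), and PROCR, an MHC-like receptor of endothelium, at a mean of 58.3 ± 7.91 FPKM with DMSO and 38.1 ± 0.127 FPKM with SB (SD, n = 2 each; -0.60, adjusted p = 0.373). CD1D (-0.46) and ULBP1 (-0.39), ligands of lymphocyte receptors, had unadjusted p-values above 0.05.

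Cell type markers also separated the groups. Both SB libraries were above both DMSO libraries in 8 of 9 tested hematopoietic markers, whose listed genes summed to 266 to 312 FPKM with DMSO and 478 to 548 FPKM with SB, and in 5 of 5 tested macrophage and antigen-presenting cell markers (59.6 to 80.3 and 141 to 175 FPKM). Among the latter, CSF1R had a difference of 2.14 (adjusted p = 0.0753) and AIF1 one of 1.48 (adjusted p = 0.208), whereas CD14 stayed near 0. Endoderm and liver markers summed to 202 to 221 FPKM with DMSO and to 31.2 to 64.1 FPKM with SB. Both SB libraries were below both DMSO libraries in 7 of 8 tested genes of this list, against 16.0% of all genes tested. AFP, the fetal liver protein gene, fell from 43.5 and 54.2 FPKM to 3.45 and 3.05 FPKM (-3.55, adjusted p = 0.0232 in limma, and 0.0807 to 0.112 with 1 library left out). Epithelial markers separated in 6 of 6 tested genes (251 to 255 and 116 to 124 FPKM) and mesenchymal markers in 7 of 8 (268 to 320 and 119 to 130 FPKM). All of these were lower with SB, against the same 16.0% of all genes. Endothelial markers summed to 2085 to 2509 FPKM with DMSO and 2103 to 2481 FPKM with SB, a sum that hides differences of single genes. Of the 10 tested, both SB libraries were above both DMSO libraries in 2, against 21.5% of all genes, and below in 1, against 16.0%. CLDN5 was higher with SB (1.04, adjusted p = 0.318 in limma) and CDH5 lower (-0.28, adjusted p = 0.710). The collection of CD31+ cells that the study describes would be a gate against endoderm, epithelial and mesenchymal cells. In such bulk samples, fewer cells of a type and less RNA per cell cannot be told apart, and the part of these markers in the class I values was not tested.

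The mean profile of the 9 members over the 4 libraries, each gene centred on its own mean, ranged over 0.19 on the log2 scale. In this mean, opposite number differences, such as 0.87 for HLA-B and -1.15 for TAPBP, offset one another, so it need not describe any single member. Of 10004 other genes with a mean of at least 5 FPKM, the 5 at the smallest distance from it were BRPF3, GTPBP2, LRFN3, RETSAT and NTHL1, at distances of 0.02 to 0.03. All 5 were somewhat higher in the libraries numbered 1, and this likeness over 4 libraries is a description only.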

How the data were processed

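RNA-seq was performed by a service company on 4 libraries, and the authors deposited FPKM values per gene, with 1 column per library. The submitters' processing notes name BWA, Bowtie and RSEM and the build hg19, whereas 95.5% of the identifiers match GENCODE 29 on GRCh38, 99.8% of these at the same position, so that coordinates are on GRCh38 and counted from 1. The scaling between libraries is not given in the sources used here. Fragment numbers were recovered from the steps of low FPKM values in single-exon genes. Between 95.7% and 96.6% of values of 1 to 5 fragments were within 0.05 of a whole number, and for multi-exon genes the numbers are approximate. Intervals come from the spread between libraries.

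Values were taken as log2(FPKM + 1), which understates changes of low genes. Genes with a mean of at least 1 FPKM in a group (14909) were tested in R 4.3.3 by limma 3.58.1, by empirical Bayes with a mean-variance trend and no term but the group, with two-sided p-values and Benjamini-Hochberg adjustment at 0.05. The members and gene lists were chosen with earlier results of these data known, and 2 listed genes are not reported here. Named were the members, the tested class I pathway genes and factors, up to 4 genes of each other list by unadjusted p, defining markers, and the 5 genes most alike in profile. The alternatives were a replicate block, no filter, a filter of 5 FPKM in 2 libraries, a pseudocount of 0.1, 4 other scalings, no trend, summed rows and the removal of each library. Promoter sequences are from RefSeq (GRCh38.p14).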

Additional observations from a re-analysis of the deposited data

How the results depend on the processing

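With 2 libraries a group and low fragment numbers for TAP1, PSMB8 and PSMB9, differences within the intervals given could not be seen. No member passed the adjusted threshold under any of the 15 alternatives to the fit, and the same holds for the other class I pathway genes. The members' median difference moved between -0.25 and 0.18 when single libraries were left out, and that of the other class I pathway genes between -0.015 and 0.23.

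Genes called in all numbered 20. There were 0 without the filter (1282 higher and 1457 lower at an unadjusted p under 0.05), 31 after quantile normalization, and between 0 (without DMSO replicate 1, with 502 higher and 599 lower at an unadjusted p under 0.05) and 16 with 1 library left out, SB replicate 1 giving 7. Samples share replicate numbers in the labels, and deviations of same-numbered libraries from their group means had a correlation of 0.528 over 14909 genes, but 2 numbers cannot establish a pairing. With the replicate number as a block, 1564 genes were called and 0 members, B2M being nearest at an adjusted p of 0.0505. The block without the filter, an alternative chosen after seeing the data, called 0 (2565 higher and 2221 lower at an unadjusted p under 0.05).

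The count of 2 of 7 members with groups apart (37.5% of all genes) was 1 of 5 under the filter of 5 FPKM (35.7% of all genes), which drops PSMB8. It was also 1 of 7 under 3 scalings, where B2M overlapped. These were upper-quartile scaling (34.8% of all genes), scaling to a common FPKM sum (35.4%) and such scaling without mitochondrial genes and RN7SL RNAs (35.1%). It was 3 of 9 without the filter (32.7% of all genes) and between 3 and 6 of 7 with 1 library left out (62.5% to 75.1% of all genes), when a lone library stands for its group and is assumed to vary like the others. HLA-C turned to -0.027 (quantile normalization), -0.019 (upper quartile), -0.024 (common sum) and -0.019 (common sum without those RNAs), and lay between -0.25 and 0.30 with 1 library left out. Leaving out 1 library gave a range from -0.79 to 0.26 for HLA-B, from -0.55 to 0.084 for HLA-E, from -0.45 to 0.074 for TAP2 and from -0.63 to 0.55 for TAPBP. B2M and PSMB8 kept their direction in every alternative that tested them.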
